A study of Mus musculus with 10 samples.

Results

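Sall1, Sall2, Sall3 and Sall4, the mouse spalt-like genes, were followed across the cortex of embryos that carried no, 1 or 2 trapped copies of Gatad2b. They were 4 of the 31053 genes counted in every library and were taken by name as a family. The family was selected on the measured Sall4 level, near 0 in WT embryos and higher in mutants. Differences of Sall4 between the genotypes are therefore given below as a description with no test. Single-cell RNA libraries had been made from the cortex of 3 WT (Gatad2b+/+), 4 Het (Gatad2b stop/+) and 3 KO (Gatad2b stop/stop) embryos at E16.5, with 1 library per embryo. The allele was a germline trapping cassette inserted in an intron, so that the coding exons remained in the locus, and all animals were on a C57BL/6N-A tm1Brd background. The embryo was the replicate, litters were not named, and the cells were those that survived papain dissociation. Cells with at least 1000 unique molecular identifiers (UMIs, the count of distinct captured RNA molecules) and at most 10% mitochondrial UMIs were kept.

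The spalt-like genes encode C2H2 zinc-finger transcription factors that carry clusters of paired fingers and bind AT-rich DNA. Most of them recruit the NuRD complex, the nucleosome remodeling and deacetylase complex of which Gatad2b is a subunit, through a short motif at their N terminus. Sall1 and Sall3 are known from neural progenitors, and Sall1 also from microglia, where it maintains the identity of the resting cell. Sall2 is the member most associated with neurons, and Sall4 is a factor of pluripotent, germ and early embryonic cells that is normally silent in the maturing brain.

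The start of the coding sequence of Sall2 and Sall4 is shown because it encodes the N-terminal NuRD-binding motif, and because the 2 annotated coding forms of Sall2 differ there. The stretches below are the first 36 coding bases in GRCm38 with GENCODE vM21 gene models, printed 5′ to 3′ on the minus strand, on which both genes lie. Capitals mark bases that are the same in Sall2-201 and Sall4-201 and, in Sall2-202, bases equal to those. The positions are chr14:52328140-52328175 in exon 1 for Sall2-201, chr14:52316074-52316109 in exon 1 of the other start for Sall2-202, and chr2:168766994-168767029 in exon 1 for Sall4.
Sall2-201: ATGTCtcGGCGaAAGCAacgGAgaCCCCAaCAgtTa
Sall2-202: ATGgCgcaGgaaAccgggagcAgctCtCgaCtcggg
Sall4-201: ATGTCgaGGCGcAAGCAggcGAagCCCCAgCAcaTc

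In these stretches Sall2-201 shared 24 of 36 bases with Sall4-201, and Sall2-202 shared 13. The library chemistry reads the 3′ end of transcripts, so the counts below could not separate the 2 forms of Sall2. The whole genes span chr14:52311172-52328762 (Sall2, ENSMUSG00000049532) and chr2:168748332-168767943 (Sall4, ENSMUSG00000027547). Sall1 was counted as ENSMUSG00000031665 and Sall3 as ENSMUSG00000024565. An antisense transcript, Gm14261, overlaps Sall4 in the annotation, and no count of it was used here.

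The files held 80071 barcodes, of which 65779 were kept, with 5147 to 8103 cells and 82872641 to 123737385 UMIs per embryo. Each pair of libraries shared 4 to 19 cell barcodes, at most 0.325% of the smaller library. Gatad2b, the targeted gene, was highest in WT and lowest in KO over all cells, at 134 ± 4.35 CPM (SD, n = 3) in WT, 92.4 ± 2.97 (n = 4) in Het and 53.7 ± 3.28 (n = 3) in KO. CPM here is the UMI count of a gene scaled to the library's total UMIs, with TMM scaling between embryos. Names of the libraries began with 1 of 2 prefixes. Het replicate 4 had that of WT, while every KO library had that of the other Het replicates, so WT and KO could not be compared within a prefix.

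Over all cells, Sall1 rose and Sall2 fell in KO against WT, and Sall3 did not pass the test in any comparison. Sall4, described without a test, had a higher mean in KO than in Het. Of all genes tested, 24.5% passed in KO vs WT, while Het vs WT had 2.98% and KO vs Het had 5.50%, so a call in KO vs WT was common. A gene was called at a Benjamini-Hochberg adjusted p under 0.05 (edgeR quasi-likelihood test over all 17647 genes tested) and an absolute log2 fold change above 0.25. All 4 genes passed the filter on low counts. The comparisons with WT share the WT embryos, and each Het embryo enters 2 of the 3 comparisons.

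Sall1 measured 4.52, 6.20 and 5.65 CPM in the 3 WT embryos, 6.67, 6.73, 7.21 and 6.91 in the 4 Het embryos and 7.25, 7.93 and 8.38 in the 3 KO embryos. The 3 genotypes did not overlap, with every WT embryo below every Het embryo and every Het embryo below every KO embryo. The log2 fold change was 0.52 (SE 0.11, adjusted p = 0.00347) in KO vs WT, 0.33 (SE 0.10, adjusted p = 0.0721) in Het vs WT and 0.19 (adjusted p = 0.288) in KO vs Het. The Het vs WT value passed with DESeq2 (0.33, adjusted p = 0.0182), with a replicate block (0.34, adjusted p = 0.0283) and in cells with at most 5% mitochondrial UMIs (0.54, adjusted p = 0.0248), and without WT replicate 1 it was 0.21 (adjusted p = 0.199). Only Het had a replicate 4, so the replicate block sets Het replicate 4 aside and compares Het with WT across prefixes. With the library prefix as a covariate the KO vs WT value was 0.53 and no longer passed (adjusted p = 0.106). In the prefix of the WT embryos, Het replicate 4 stood at 6.91 CPM against 4.52 to 6.20 in WT, and in the other prefix KO measured 7.25 to 8.38 against 6.67 to 7.21 in Het.

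Sall2 measured 22.8, 25.3 and 25.3 CPM in WT, 19.1, 20.7, 21.0 and 23.0 in Het and 18.6, 19.0 and 19.3 in KO. The KO embryos lay below all WT embryos, and the Het embryos overlapped both groups. Sall2 fell by 0.37 on the log2 scale in KO vs WT (SE 0.065, adjusted p = 0.00151), while the log2 fold change was -0.22 (adjusted p = 0.0545) in Het vs WT and -0.15 (adjusted p = 0.178) in KO vs Het. The Het vs WT value passed with a replicate block (-0.27, adjusted p = 0.00233) and without Het replicate 4 (-0.27, adjusted p = 0.00474). These fits are nearly the same, because only Het had a replicate 4 and the block sets that embryo aside. Both compare Het embryos of 1 prefix with WT embryos of the other, so genotype and prefix cannot be told apart in them. With the library prefix as a covariate the KO vs WT value was -0.18 (adjusted p = 0.228). Het replicate 4, at 23.0 CPM, lay within the range of the WT embryos of its own prefix, and KO measured 18.6 to 19.3 against 19.1 to 21.0 in Het replicates 1 to 3, which overlap.

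Sall3 measured 6.55, 8.52 and 7.67 CPM in WT, 6.36, 6.52, 8.16 and 7.59 in Het and 9.19, 8.03 and 8.65 in KO. The groups overlapped, and the log2 fold change was 0.19 in KO vs WT (adjusted p = 0.228), -0.082 in Het vs WT (adjusted p = 0.672) and 0.27 in KO vs Het (adjusted p = 0.164). When only cells with at most 5% mitochondrial UMIs were used, the KO vs WT value became 0.41 and passed (adjusted p = 0.0150). As for Sall1, that limit need not fall equally on the genotypes.

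Sall4 was counted 9, 12 and 5 times in the whole of the 3 WT libraries, 26, 30, 36 and 29 times in the Het libraries and 43, 70 and 89 times in the KO libraries. These counts came to 0.0816, 0.100 and 0.0501 CPM in WT, 0.275, 0.328, 0.373 and 0.232 in Het and 0.404, 0.861 and 0.890 in KO. The order WT, Het, KO had no overlap, although KO replicate 1 lay closer to the highest Het embryo than to the other KO embryos. The mean was 0.0773 ± 0.0253 CPM in WT, 0.302 ± 0.0613 in Het and 0.718 ± 0.273 in KO, ratios of 3.91 and 9.29 to WT that follow the choice of the gene and were not tested. Het replicate 4, in the prefix of the WT libraries, held 0.232 CPM against 0.0501 to 0.100 in WT.

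That choice used the Sall4 levels of the mutant embryos, although not the difference between the mutant groups, so KO vs Het is also given without a test. The log2 fold change in KO vs Het was 1.25 (SE 0.29). Within the prefix that holds both groups KO measured 0.404 to 0.890 CPM against 0.275 to 0.373 in Het replicates 1 to 3. The value was 1.29 without Het replicate 2, 1.10 without KO replicate 2 and 1.05 without KO replicate 3.

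**Figure D1:**
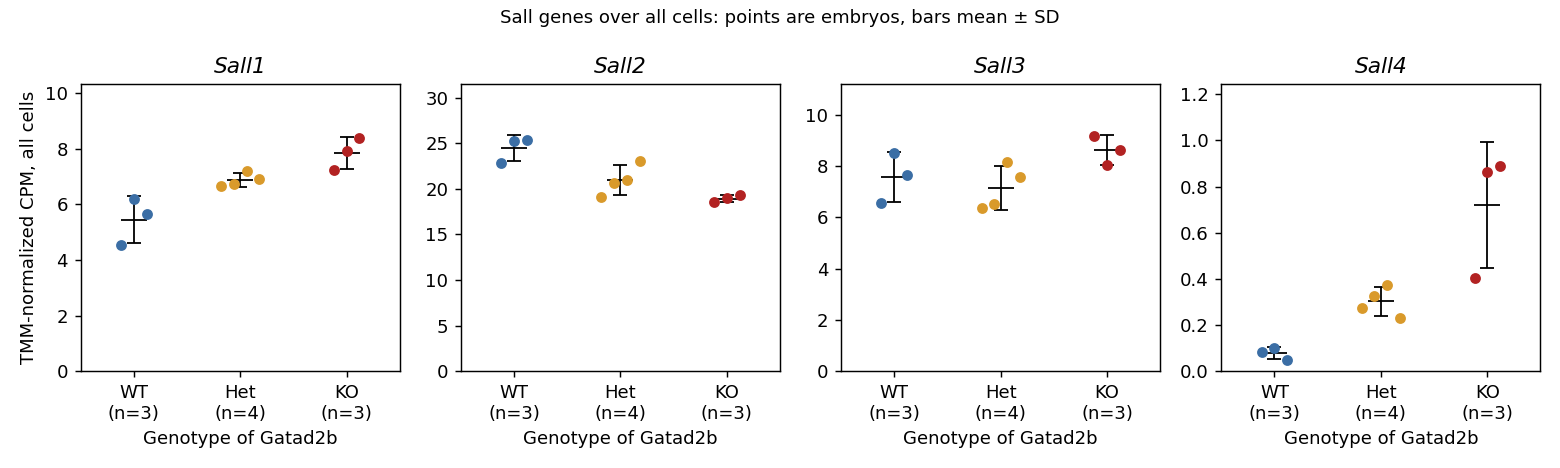
Level of each Sall gene over all cells by Gatad2b genotype, in TMM-normalized CPM on linear axes from 0. Points are embryos and bars are the mean ± SD, and in the Sall4 panel WT embryos lie at 0.0501 to 0.100 CPM and KO embryos at 0.404 to 0.890.

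In cells, Sall4 UMIs were thinly spread. A UMI was found in 8, 11 and 4 cells of the WT embryos, in 22, 26, 31 and 28 cells of the Het embryos and in 40, 64 and 82 cells of the KO embryos. That is a mean of 0.101% of WT cells, 0.426% of Het cells and 1.08% of KO cells, at median depths of 12227, 14315 and 15345 UMIs per cell. No cell held more than 3 Sall4 UMIs. In erythroid-like cells, which should lack the gene and serve as a measure of free RNA, 0 of 620 WT cells, 1 of 607 Het cells and 0 of 336 KO cells had a Sall4 UMI, at median depths of 7417, 9847 and 11198. The 0 of 336 KO cells allows a share of up to 0.893%, by the limit of 3 counts. Thinned to 2000 UMIs per cell, the shares were 0.0138%, 0.0366% and 0.0987%, which rest on 3, 9 and 16 cells.

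Classes of cells were named from clusters by marker lists, and 12 classes were obtained from 22 of 26 clusters, with 4 clusters left unnamed. The study's annotation of single cells was not used here, so each class is called by the list that its cluster matched. Of the leading genes of the ganglionic eminence-like cluster, most were division genes such as Top2a and Mki67. The radial glia-like cluster scored higher on the oligodendrocyte precursor list than on its own, although 5 of its 10 leading genes were radial glia markers. Differences between genotypes were tested in classes with at least 20 cells in every embryo, which left out the endothelial-like class, where Het replicate 3 stood apart with 340 cells.

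Among classes of WT embryos, Sall1 was highest in microglia-like cells (57.7 ± 14.1 CPM, SD, n = 3), ganglionic eminence-like cells (42.4 ± 6.63) and radial glia-like cells (41.8 ± 8.21), whose ranges overlapped. It then dropped without overlap to interneuron-like (10.0 ± 2.58), striatal inhibitory-like, pericyte-like and intermediate progenitor-like cells (8.81 ± 1.50), which overlapped one another in that order. Excitatory neurons held little Sall1, with 0.470 ± 0.184 CPM in layer V-VI-like and 0.345 ± 0.0430 in layer II-IV-like cells, near the 0.470 ± 0.218 of erythroid-like cells.

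Sall2 was found in every class and was highest in inhibitory neurons and radial glia. It measured 52.7 ± 1.83 CPM in interneuron-like, 49.7 ± 1.48 in striatal inhibitory-like and 46.0 ± 3.87 in radial glia-like cells of WT embryos. The interneuron-like class lay above the next without overlap, and the striatal and radial glia-like classes overlapped. Ganglionic eminence-like (29.0 ± 5.44), intermediate progenitor-like (28.6 ± 3.00) and layer I-like cells (26.6 ± 1.65) formed an overlapping run. Layer II-IV-like cells (16.8 ± 1.11) came next and overlapped in range with microglia-like cells, and layer V-VI-like cells held 14.3 ± 0.706 CPM against 2.45 ± 0.398 in erythroid-like cells.

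Sall3 was highest in radial glia-like and ganglionic eminence-like cells. In WT embryos it stood at 130 ± 1.97 CPM in radial glia-like cells and at 52.5 ± 5.40 in ganglionic eminence-like cells, with no overlap between them or with the next class. Microglia-like cells (11.9 ± 2.24, 12 UMIs in all), striatal inhibitory-like (10.7 ± 5.18) and interneuron-like cells (5.29 ± 0.847) overlapped in turn. In layer V-VI-like and layer II-IV-like cells it was 0.394 ± 0.249 and 0.312 ± 0.157 CPM, and no Sall3 UMI was found in the layer I-like cells of WT embryos (0 of 288 cells, which allows a share of up to 1.04%).

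Sall4, ordered in KO embryos because WT counts were too few, was highest in radial glia-like (1.82 ± 1.05 CPM), intermediate progenitor-like (1.63 ± 0.855) and ganglionic eminence-like cells (1.33 ± 0.791). Layer V-VI-like (0.696 ± 0.131), layer I-like (0.651 ± 0.597, on 3 UMIs) and layer II-IV-like cells (0.646 ± 0.393) followed, and no 2 neighbours in the order differed beyond their spread. Sall4 was at 0 UMIs in microglia-like, erythroid-like and endothelial-like cells of KO embryos. These were 0 of 70, 0 of 336 and 0 of 64 cells, which allow shares of up to 4.29%, 0.893% and 4.69%. In bulk sums of this kind, fewer cells that transcribe a gene and less RNA in each of them cannot be told apart.

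**Figure D2:**
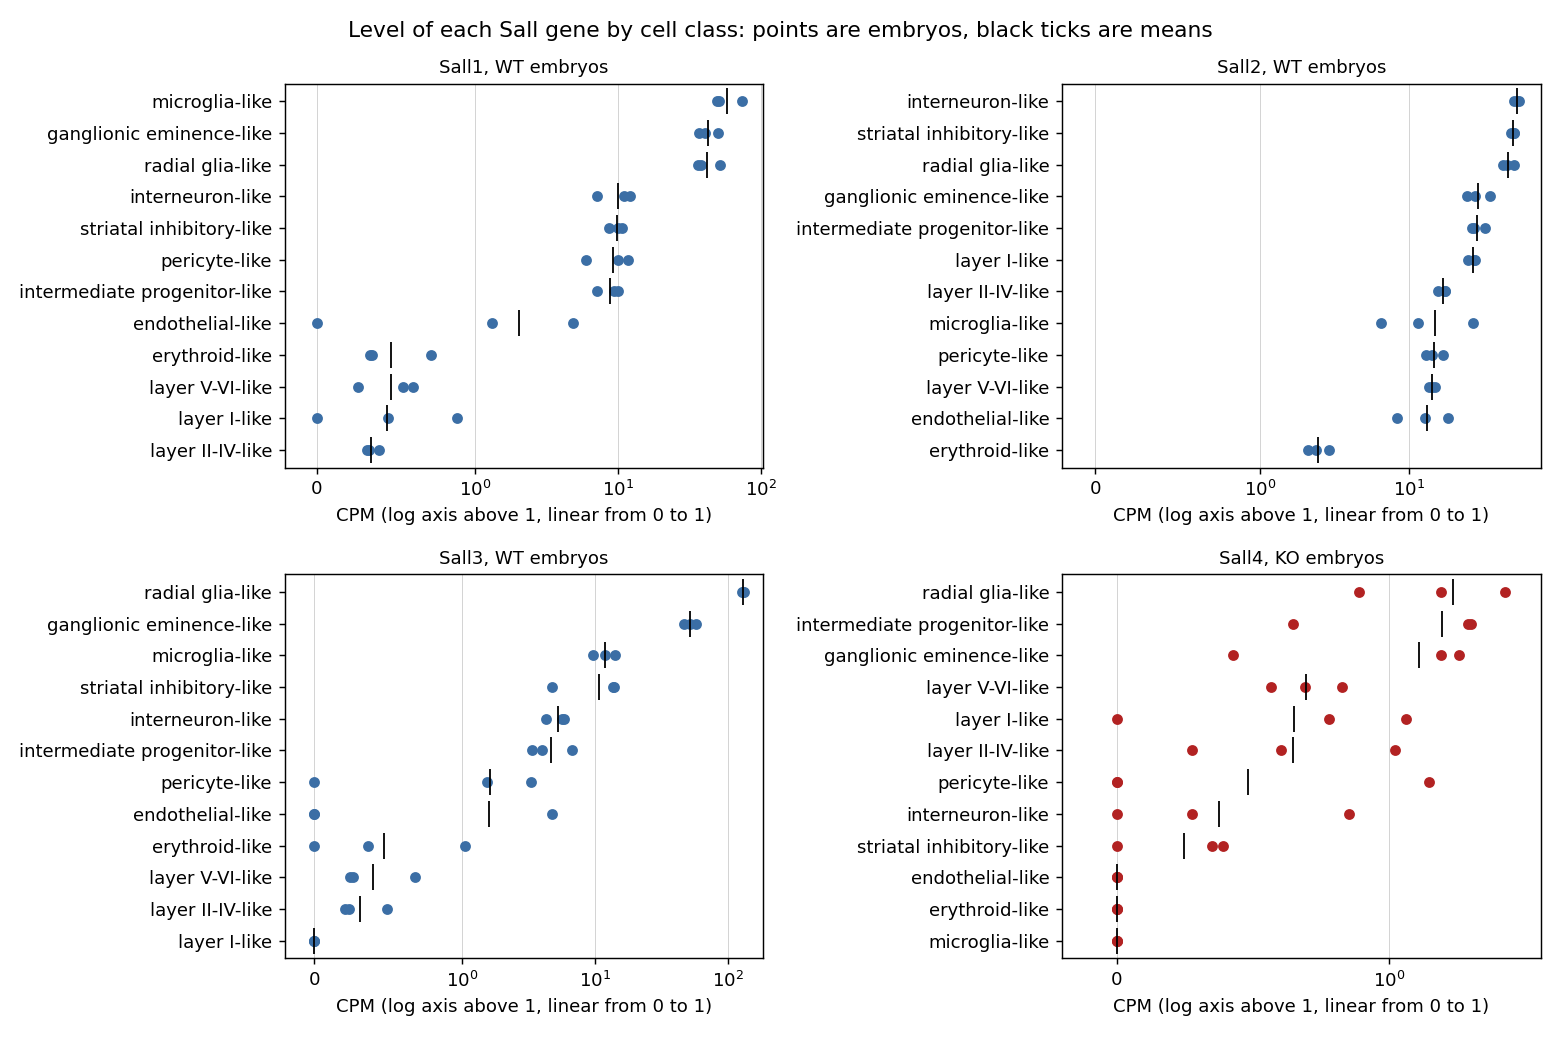
Level of each Sall gene by cell class in CPM (linear from 0 to 1, log above 1), for WT embryos (Sall1 to Sall3) and KO embryos (Sall4), with classes ordered by mean. Points are embryos and black ticks means, and Sall3 spans from 0 in layer I-like cells to 130 CPM in radial glia-like cells.

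Taken by class, Sall2 passed all 3 comparisons of genotypes in layer II-IV-like cells, and taken by cluster it also fell in KO vs WT outside that class. In layer II-IV-like cells, the upper-layer excitatory neurons, Sall2 was counted 591, 586 and 530 times in WT, 308, 302, 291 and 370 times in Het and 161, 139 and 167 times in KO embryos. This came to 15.5, 17.4 and 17.4 CPM in WT, 10.4, 11.9, 11.9 and 11.6 in Het and 5.54, 5.59 and 6.31 in KO. The 3 genotypes did not overlap, and the Het embryos of both prefixes stood together between the WT and KO embryos.

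Sall2 in layer II-IV-like cells fell by 0.55 on the log2 scale in Het vs WT (SE 0.073, adjusted p = 0.000637), by 1.53 in KO vs WT (SE 0.086, adjusted p = 1.21e-08) and by 0.98 in KO vs Het (SE 0.085, adjusted p = 3.11e-06), and all 3 passed. In this class 6.70% of genes were called in Het vs WT, and the other two comparisons had 30.7% (KO vs WT) and 11.4% (KO vs Het). Within prefixes, Het replicate 4 measured 11.6 CPM against 15.5 to 17.4 in WT, and KO measured 5.54 to 6.31 against 10.4 to 11.9 in Het replicates 1 to 3. Leaving out each embryo in turn kept the KO vs WT value between -1.59 and -1.50.

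Layer II-IV-like cells gave 21.2% of all Sall2 UMIs in WT, 14.8% in Het and 8.58% in KO, while their share of cells was 26.4 ± 2.78%, 24.8 ± 2.88% and 25.1 ± 1.07%. The share of these cells with a Sall2 UMI was 22.8 ± 3.70% in WT, 16.9 ± 1.58% in Het and 9.42 ± 0.568% in KO, at median depths of 15206, 16364 and 17350 UMIs. Thinned to 2000 UMIs per cell it was 3.55%, 2.18% and 1.10%. In erythroid-like cells the share with a Sall2 UMI was 3.30%, 0.901% and 0.641%, on 20, 6 and 2 cells, at median depths of 7417, 9847 and 11198 UMIs. Thinned it was 1.52%, 0.169% and 0%, on 8, 1 and 0 cells. The background share was thus also lowest in KO, but on too few cells to order the genotypes.

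The fall in KO vs WT passed the test in each of the 3 clusters of the class. In cluster 0, led by Hs6st2 and Cdh12, Sall2 measured 14.3, 16.8 and 17.6 CPM in WT, 8.79, 9.20, 11.0 and 8.15 in Het and 3.20, 3.86 and 3.67 in KO, with no overlap. The log2 fold change there was -0.81 in Het vs WT (adjusted p = 0.000169) and -2.18 in KO vs WT (SE 0.14, adjusted p = 1.25e-09), where 28.7% of genes were called. In cluster 9, led by Inhba, it was -0.32 (adjusted p = 0.118) and -1.46 (adjusted p = 8.75e-07), with 20.6% of genes called in KO vs WT. In cluster 2, led by Unc5d, a receptor of migrating upper-layer neurons, it was -0.35 (adjusted p = 0.163) and -0.72 (adjusted p = 0.00194), with 21.3% called in KO vs WT. Sall2 in KO thus measured 3.20 to 3.86 CPM in cluster 0, 5.92 to 8.84 in cluster 9 and 7.17 to 9.25 in cluster 2. Tests by cluster were added after the data had been seen.

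The difference between classes was tested in 1 fit with the embryo as a block, also added after seeing the data. The Sall2 change in KO vs WT was more negative in layer II-IV-like cells than in 7 of the 10 other classes, by 1.28 to 1.56 on the log2 scale (adjusted p = 4.83e-08 to 0.000174). The share of all genes that passed in such fits is not given here. Against layer V-VI-like cells, the deeper excitatory neurons, the difference was -1.31 (SE 0.10, adjusted p = 1.83e-07). The other 3 classes were pericyte-like (-1.13, adjusted p = 0.207), microglia-like (0.42, adjusted p = 0.962) and erythroid-like cells (0.12, adjusted p = 1.00), in which Sall2 counts were few. In Het vs WT the difference passed against radial glia-like cells (-0.57, adjusted p = 0.0487) and was -0.37 against layer V-VI-like cells (adjusted p = 0.0595).

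In layer V-VI-like cells themselves Sall2 measured 13.5, 14.9 and 14.3 CPM in WT, 12.3, 11.9, 12.1 and 14.1 in Het and 12.3, 11.9 and 12.7 in KO. The KO embryos lay just below the WT embryos, and the log2 fold change of -0.21 did not pass (SE 0.08, adjusted p = 0.0717). This sum held 2 clusters in which Sall2 moved in opposite directions, so neither it nor the difference of -1.31 describes both of them.

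In cluster 5 of the layer V-VI-like class, led by Nrip1, Oma1 and Tox and holding Fezf2, a factor of subcortical projection neurons, among its 10 leading genes, Sall2 measured 13.9, 16.1 and 18.0 CPM in WT, 12.9, 11.3, 13.0 and 11.7 in Het and 7.39, 8.76 and 7.54 in KO. The 3 genotypes did not overlap. Sall2 fell there by 1.01 on the log2 scale in KO vs WT (SE 0.13, adjusted p = 1.50e-05), where 23.6% of genes were called, and the call held in all 10 fits with 1 embryo left out (-1.10 to -0.92). In Het vs WT the value was -0.37 (adjusted p = 0.0845). The cluster was mixed, with a score of 0.80 on the layer V-VI list and 0.56 on the layer II-IV list. A finer clustering placed 52.1% of its cells in a layer V-VI-like cluster led by Fezf2 and Ldb2 and 45.8% in a layer II-IV-like cluster led by Ntf3 and Nrip1. In the first of these portions Sall2 was -0.82 in KO vs WT (SE 0.16, adjusted p = 0.000594, 22.1% of genes called) and in the second -1.23 (SE 0.22, adjusted p = 0.000484, 19.7% called). Within prefixes, Het replicate 4 stood at 11.7 CPM against 13.9 to 18.0 in WT, and KO stood at 7.39 to 8.76 against 11.3 to 13.0 in Het replicates 1 to 3.

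In cluster 3 of the same class, led by Hs3st4 and Tle4, a corepressor of corticothalamic neurons, Sall2 measured 13.1, 13.3 and 10.6 CPM in WT, 11.5, 12.7, 11.2 and 16.7 in Het and 17.1, 15.6 and 18.5 in KO. Every KO embryo lay above every WT embryo, and Het replicate 4 lay among the KO embryos. The log2 fold change was 0.46 in KO vs WT (SE 0.15, adjusted p = 0.0308), where 21.5% of genes were called. It passed in 5 of 10 fits with 1 embryo left out, and was lost without WT replicate 1 (0.51, adjusted p = 0.0565), WT replicate 2 (0.51, adjusted p = 0.0555), WT replicate 3 (0.37, adjusted p = 0.114), KO replicate 1 (0.45, adjusted p = 0.0848) or KO replicate 3 (0.40, adjusted p = 0.103). The finer clustering kept 76.7% of its cells in 1 layer V-VI-like cluster, and in that portion Sall2 measured 11.6, 11.2 and 9.53 CPM in WT, 10.5, 11.2, 8.80 and 13.2 in Het and between 16.3 and 16.9 in the KO embryos, with all KO embryos above all others. The log2 fold change in this portion was 0.60 in KO vs WT (SE 0.14, adjusted p = 0.00444, 22.6% of genes called) and 0.58 in KO vs Het (SE 0.13, adjusted p = 0.00625, with 1193 of 12088 genes called). The change in cluster 5 was more negative than that in cluster 3 by 1.45 on the log2 scale (SE 0.20, adjusted p = 5.18e-05).

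Cluster 8, an unnamed cluster led by Crym, Grp and Nrp2, held Sall2 at 16.3, 16.2 and 18.3 CPM in WT, 10.4, 11.5, 12.1 and 13.1 in Het and 10.5, 8.62 and 8.57 in KO. The mutant embryos all lay below the WT embryos, and Het and KO overlapped. Sall2 fell by 0.86 in KO vs WT (SE 0.13, adjusted p = 0.000367), where 17.2% of genes were called, in all 10 fits with 1 embryo left out (-0.98 to -0.80). The fall of Sall2 was thus not particular to layer II-IV-like cells. It was more negative in that class than in cluster 8 by 0.67 (adjusted p = 0.00668) and than in cluster 5 by 0.51 (adjusted p = 0.0249) in KO vs WT, and in Het vs WT these differences were -0.041 (adjusted p = 0.968) and -0.18 (adjusted p = 0.740). Against cluster 3 the KO vs WT difference was -1.97 (adjusted p = 8.13e-08).

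Of 19 clusters in which Sall2 could be tested, 5 were called lower and 1 higher in KO vs WT. Genes called in these clusters, in either direction, ran from 12 of 10310 in cluster 16 to 3673 of 12796 in cluster 0. In the other 13 clusters the log2 fold change of Sall2 ran from -1.22, in an unnamed cluster with few UMIs (cluster 13, adjusted p = 0.0867), to 0.01. Cluster 13 was led by Ttr and scored 4.45 on the choroid plexus list. Over all cells the 7 choroid plexus markers summed to a mean of 635 CPM in WT (5.26 to 1789), 3.27 in Het and 2.42 in KO. The part of choroid plexus cells in these values was not tested. Clusters 5, 3 and 8 were 6.26%, 6.23% and 4.06% of cells in WT and 6.97%, 7.61% and 4.71% in KO. Their summed level of the 11 layer V-VI markers went from 1358, 3814 and 910 CPM in WT to 2094, 4814 and 1245 in KO, and that of the 10 layer II-IV markers from 1415, 463 and 540 to 1148, 400 and 387. The part of these markers in the Sall2 differences was not tested.

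With the layer II-IV-like class left out, the sum of all other cells gave -0.21 for Sall2 in KO vs WT (adjusted p = 0.0206), under the fold threshold, against -0.37 with it.

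Other measures differed between the genotypes along with Sall2 in layer II-IV-like cells. Cluster 0 made up 51.9% of the class in WT, 46.5% in Het and 45.4% in KO, cluster 2 made up 28.0%, 34.9% and 42.8%, and cluster 9 made up 20.2%, 18.6% and 11.7%. The summed level of the 10 markers of the class was 2299 CPM in WT (2249 to 2342), 2148 in Het and 1906 in KO (1842 to 1959), that of 11 layer V-VI markers was 472, 567 and 851, and that of 8 intermediate progenitor markers was 186, 253 and 357. The 13 interneuron markers summed to 154, 118 and 70.4 CPM, none at 0, or 3.20%, 2.40% and 1.57% of their level in interneuron-like cells. The part of the layer V-VI, progenitor and interneuron markers in the Sall2 difference was not tested.

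**Figure D3:**
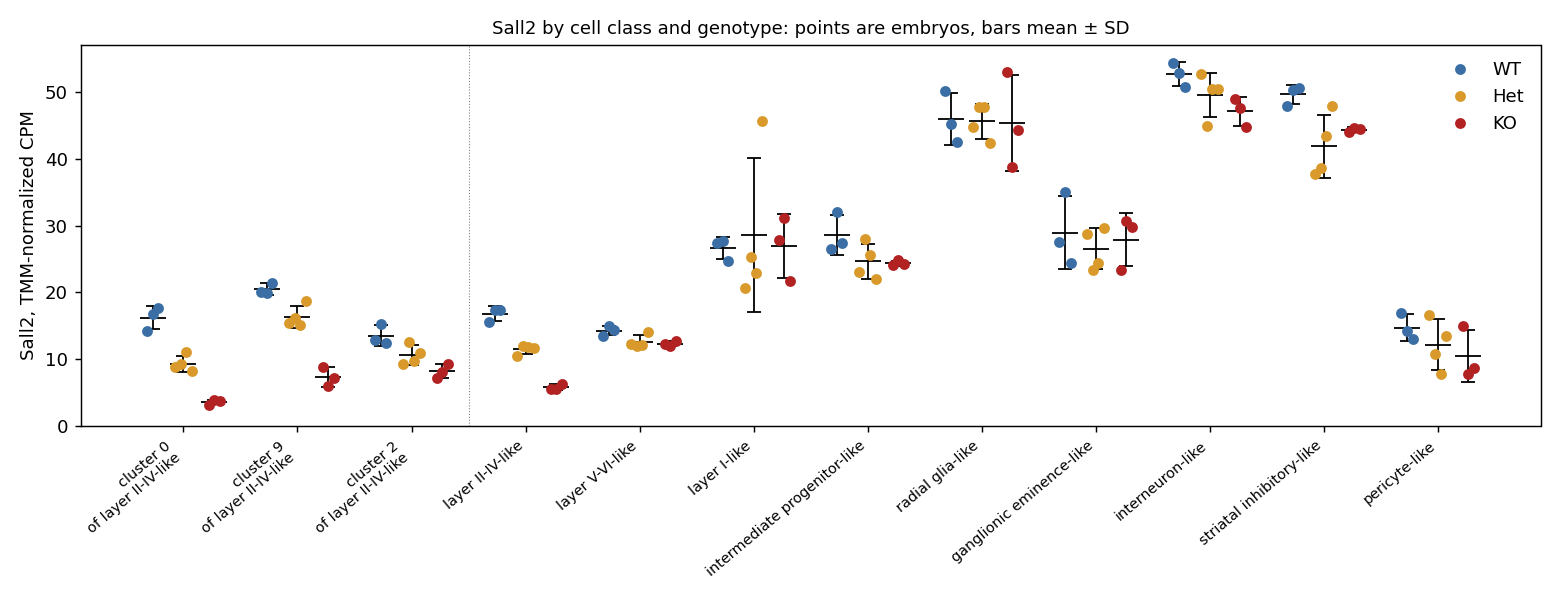
Sall2 in TMM-normalized CPM on a linear axis from 0, by genotype, for the 3 clusters of the layer II-IV-like class (left of the dotted line) and 9 classes. Points are embryos and bars the mean ± SD, and the WT, Het and KO embryos separate in layer II-IV-like cells at means of 16.8, 11.5 and 5.81 CPM.

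In the remaining 8 classes in which Sall2 could be tested, the KO vs WT log2 fold change ran from -0.44 to 0.01 and the adjusted p from 0.0717 to 0.998. The share of all genes called in KO vs WT was 24.1% in layer V-VI-like, 23.7% in intermediate progenitor-like, 20.1% in radial glia-like, 17.0% in striatal inhibitory-like, 9.14% in interneuron-like, 7.37% in ganglionic eminence-like, 5.56% in layer I-like, 2.12% in microglia-like and 0.286% in pericyte-like cells. Sall2 was thus called in 1 of 9 classes, Sall1 in 2 of 8 and Sall3 in 0 of 5 by edgeR. At an unadjusted p under 0.05 the counts were 4 of 9 for Sall2, 5 of 8 for Sall1 and 2 of 5 for Sall3. Both counts for Sall1 include layer II-IV-like cells, where it passed the low-count filter mainly through the mutant embryos. Over all genes, those at such a p ran from 1184 of 9442 in pericyte-like to 7124 of 14201 in layer II-IV-like cells. Clusters tested on their own added a call for Sall3, described with that gene below. In radial glia-like cells, where Sall2 stands high, it measured 50.2, 45.3 and 42.6 CPM in WT and 53.1, 38.8 and 44.4 in KO, with overlapping groups and a log2 fold change of 0.01 (SE 0.12, adjusted p = 0.955).

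**Figure D4:**
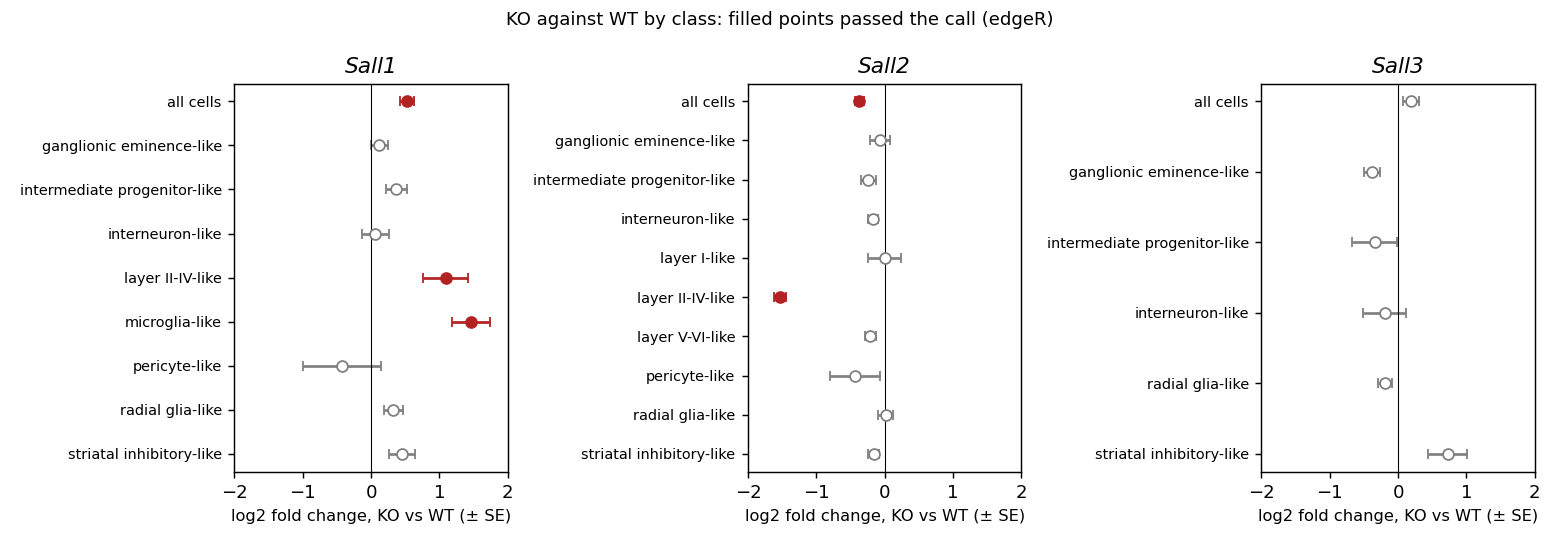
Log2 fold change in KO vs WT with its SE for Sall1, Sall2 and Sall3 over all cells and in each class where the gene could be tested. Filled points passed the call, among them Sall2 in layer II-IV-like cells at -1.53 and Sall1 in microglia-like cells at 1.46. Sall1 in layer II-IV-like cells, also filled, passed the low-count filter mainly through the mutant embryos.

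Sall1 passed in KO vs WT in microglia-like cells, and its value in layer II-IV-like cells is given without a test. Taken as classes, the progenitors gave no Sall1 call. In microglia-like cells it was counted 15, 26 and 17 times in WT, 20, 13, 17 and 10 times in Het and 32, 21 and 32 times in KO, in 21 to 44 cells per embryo. These were 48.7, 73.9 and 50.4 CPM in WT, 82.3, 75.8, 82.2 and 51.5 in Het and 133, 151 and 198 in KO. The KO embryos lay above all others, and WT and Het overlapped.

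The microglia-like log2 fold change of Sall1 was 1.46 in KO vs WT (SE 0.28, adjusted p = 0.0328), 1.12 in KO vs Het (adjusted p = 0.547) and 0.34 in Het vs WT (adjusted p = 0.770). Without any single WT or KO embryo the KO vs WT value was 1.30 to 1.69 and the call was lost each time, and with the library prefix as a covariate it was 0.82 (adjusted p = 0.558). The 10 microglia markers summed to 13618 CPM in the WT embryos (12268 to 14730), 19678 in the Het embryos (15877 to 21524) and 23192 in the KO embryos (19203 to 25577). Per 1000 UMIs of those markers, Sall1 was 3.31, 6.03 and 3.64 in WT, 3.82, 3.83, 5.18 and 2.39 in Het and 5.37, 5.91 and 10.3 in KO, so on that scale WT and KO overlapped. Genes of other myeloid cells stood among the leading genes of this cluster, with Lyz2 at 341 to 1627 CPM in WT and 2050 to 3827 in KO, and erythroid markers reached 58370 CPM in 1 KO embryo against 190 to 196 in WT. Their part in the result was not tested.

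In layer II-IV-like cells Sall1 was near the erythroid-like background, at 0.315, 0.327 and 0.395 CPM in WT, 0.746, 0.591, 0.613 and 0.944 in Het and 0.447, 0.844 and 0.945 in KO. All mutant embryos lay above the WT embryos, on 11 to 30 UMIs per embryo. The log2 fold change was 1.09 in Het vs WT (SE 0.31) and 1.09 in KO vs WT (SE 0.33). Sall1 passed the low-count filter in this class mainly through the mutant embryos, so no test is given. The Het vs WT value ran from 0.92 to 1.18 with 1 embryo left out. With clusters made without integration it was 0.60, and the KO vs WT value was 0.64. The KO vs WT value was 1.03 without WT replicate 1, 0.99 without KO replicate 2 and 0.88 without KO replicate 3. A Sall1 UMI was found in 33 of 6116 WT cells, 70 of 6298 Het cells and 54 of 4302 KO cells of this class, against 4 of 620, 2 of 607 and 2 of 336 erythroid-like cells.

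In radial glia-like cells Sall1 measured 36.3, 51.2 and 37.8 CPM in WT, 66.6, 49.7, 59.1 and 48.5 in Het and 54.7, 48.5 and 54.8 in KO. The groups overlapped through WT replicate 2, and the log2 fold change was 0.40 in Het vs WT (adjusted p = 0.126) and 0.32 in KO vs WT (adjusted p = 0.112). In ganglionic eminence-like cells it was 0.12 in KO vs WT (SE 0.13, adjusted p = 0.596), and in intermediate progenitor-like cells 0.36 (adjusted p = 0.0933). Without WT replicate 2 the radial glia-like value in KO vs WT was 0.52 and passed (adjusted p = 0.0276), and without Het replicate 4 the Het vs WT value was 0.59 and passed (adjusted p = 0.0453).

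The intermediate progenitor-like class joined 3 clusters, of which 2 had enough cells in every embryo to be fitted. In cluster 19, led by Tesc, Tac2 and Prox1 and close in score on the radial glia list (1.65) to its own (1.91), Sall1 measured 1.62, 2.63 and 3.48 CPM in WT, 3.30, 4.83, 3.95 and 11.5 in Het and 11.1, 17.3 and 13.5 in KO, on 15, 46 and 38 UMIs per genotype. The KO embryos lay above all WT embryos, and Het replicate 4 lay above the lowest KO embryo. The log2 fold change of Sall1 there was 2.28 in KO vs WT (SE 0.51), where 4.43% of genes were called. Sall1 passed the low-count filter in this cluster mainly through the KO embryos, so no test is given. With 1 embryo left out, the KO vs WT value ran from 2.11 to 2.58. This cluster was 1.26% of cells in WT, 1.25% in Het and 0.697% in KO. In cluster 7, led by Eomes and Neurog2, factors of intermediate progenitors, Sall1 was -0.042 (SE 0.20, adjusted p = 0.913), and the difference between the clusters was not tested. Cluster 25, with 226 cells in all, was not tested and held Sall1 at means of 14.4 (WT), 17.3 (Het) and 15.2 CPM (KO) without TMM scaling.

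The progenitor classes were a larger share of cells in the mutants. Ganglionic eminence-like cells were 2.63 ± 0.369% of cells in WT, 3.63 ± 0.437% in Het and 4.71 ± 0.634% in KO, and radial glia-like cells were 2.05 ± 0.454%, 2.21 ± 0.177% and 2.99 ± 0.657%. Together with intermediate progenitor-like cells (4.81 ± 0.262%, 6.16 ± 1.19% and 7.36 ± 0.656%) they gave most Sall1 UMIs, ganglionic eminence-like cells 26.5% in WT and 29.4% in KO and radial glia-like cells 23.8% and 28.0%. With every class given equal weight, the KO minus WT difference of log2(CPM + 1) was 0.24 for Sall1, a scale that compresses low levels and is not that of the fold changes above.

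Sall3 had lower means in both mutant groups in its 2 main classes, and neither class passed the test. In radial glia-like cells it measured 129, 133 and 130 CPM in WT, 106, 103, 134 and 102 in Het and 122, 113 and 108 in KO. The KO embryos lay below the WT embryos, 1 Het embryo lay above them, and the log2 fold change was -0.19 in KO vs WT (SE 0.10, adjusted p = 0.185) and -0.23 in Het vs WT (adjusted p = 0.209). A Sall3 UMI was found in 73.8% of these cells in WT, 75.2% in Het and 74.1% in KO, against 0.486%, 0.740% and 0.312% of erythroid-like cells, and thinned to 2000 UMIs in 23.8%, 19.8% and 18.4%. In ganglionic eminence-like cells it measured 57.9, 52.5 and 47.1 CPM in WT, 38.6, 49.9, 39.8 and 39.3 in Het and 43.0, 34.1 and 44.1 in KO. WT and KO did not overlap there, and the log2 fold change was -0.38 in KO vs WT (SE 0.12, adjusted p = 0.0541) and -0.33 in Het vs WT (adjusted p = 0.199). The KO vs WT value lay between -0.45 and -0.27 with 1 embryo left out, and it passed without Het replicate 2 or Het replicate 4 (lowest adjusted p = 0.0384).

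In striatal inhibitory-like cells Sall3 gave 0.73 in KO vs WT (SE 0.29, adjusted p = 0.0863), and 1 of the 2 clusters of the class passed. In cluster 10, led by Ebf1 and Isl1, factors of striatonigral neurons, it measured 19.0, 17.6 and 8.30 CPM in WT, 18.8, 22.3, 24.6 and 17.4 in Het and 21.4, 40.2 and 26.1 in KO. Every KO embryo lay above every WT embryo, and the Het embryos overlapped both. Sall3 rose there by 1.01 in KO vs WT (SE 0.26, adjusted p = 0.0208), where 7.27% of genes were called. The call was lost without WT replicate 3 (0.70, adjusted p = 0.123) or KO replicate 2 (0.69, adjusted p = 0.210). In cluster 4, led by Six3 and Zfhx3, it was 0.45 (SE 0.40, adjusted p = 0.482), and the difference between the clusters was not tested. Of 8 clusters in which Sall3 could be tested, cluster 10 alone was called in KO vs WT. Genes called in these clusters ran from 12 of 10310 in cluster 16 to 2369 of 11809 in cluster 15, so this count is not read as a result about Sall3.

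Sall4 was read by class as counts. In layer II-IV-like cells it was counted 5, 2 and 1 times in WT, 10, 6, 10 and 7 times in Het and 8, 15 and 28 times in KO. In layer V-VI-like cells the counts were 1, 1 and 1 in WT, 2, 4, 11 and 2 in Het and 16, 9 and 16 in KO. Intermediate progenitor-like cells held 2, 5 and 1 in WT, 9, 4, 4 and 4 in Het and 6, 13 and 18 in KO. In each of these classes the Het counts overlapped those of another genotype.

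Of the 23 WT cells with a Sall4 UMI, 7 were intermediate progenitor-like, a class with 4.80% of WT cells. Of the 186 such KO cells, 34 were intermediate progenitor-like, 17 radial glia-like and 17 ganglionic eminence-like, classes with 7.40%, 3.03% and 4.67% of KO cells. A further 47 were layer II-IV-like and 39 layer V-VI-like. No Sall4 UMI was found in 3894 interneuron-like cells of WT embryos, which allows a share of up to 0.0770%. In KO 7 of 2655 interneuron-like cells had one, and the counts were 2, 6 and 0 UMIs, so 1 KO embryo was also at 0 and 1 held most of the UMIs. Between the mutant groups, the log2 fold change of Sall4 in KO vs Het was 1.09 in layer II-IV-like cells (SE 0.42) and 1.52 in layer V-VI-like cells (SE 0.49). In both classes Sall4 passed the low-count filter mainly through KO embryos, so no test is given. The KO and Het embryos overlapped in both classes, and the other classes had too few counts to be tested.

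**Figure D5:**
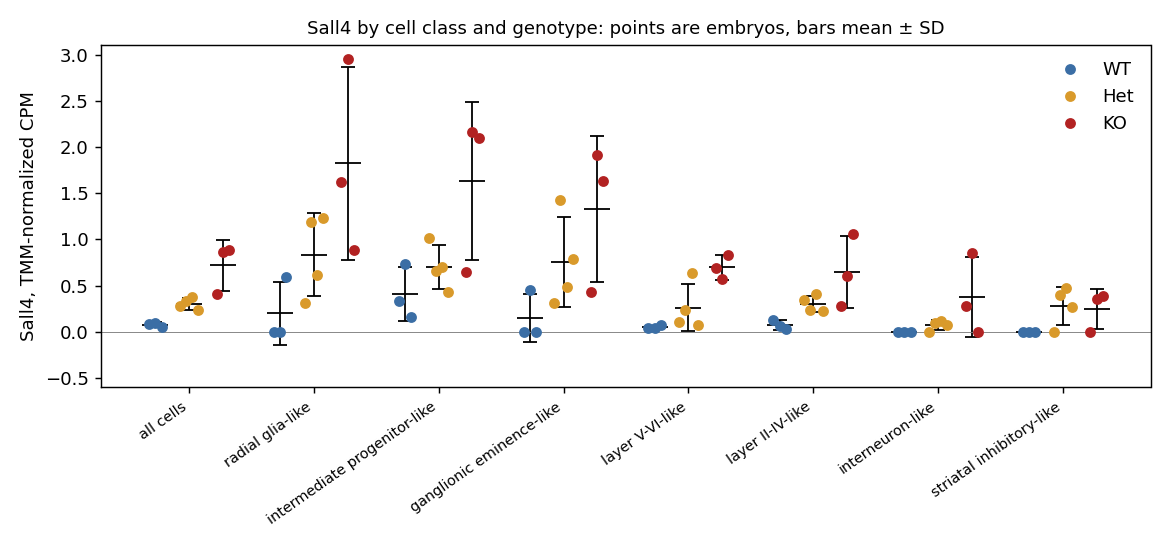
Sall4 in TMM-normalized CPM on a linear axis, over all cells and in 7 classes, by genotype. Points are embryos and bars the mean ± SD (bars below 0 come from groups with embryos at 0), and KO embryos reach 2.95 CPM in radial glia-like cells.

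Genes with the most similar pattern were listed by Pearson correlation of log2 CPM over the 12 classes of WT embryos, among 11120 genes, as a description of points that share libraries and depth. For Sall1 these were Rbl1 (r = 0.92), Wdhd1 (0.90) and Pmf1 (0.89), for Sall2 Cntfr (0.93), Ccdc66 (0.92) and Zfp626 (0.92), and for Sall3 Sox3 (0.92), Acss1 (0.91) and Sox8 (0.91). Sox3, a SoxB1 factor of neural progenitors, stood at 69.9 CPM in radial glia-like cells and 13.5 in ganglionic eminence-like cells. For Sall4, whose 26 WT UMIs give a sparse profile, they were Mfap4 (0.92), Neurog2 (0.92) and Gm29260 (0.91). Over the 10 embryos the genes nearest to Sall4 were Msi2, an RNA-binding protein of progenitors (0.98), Gm2694 (0.98) and Fam241a (0.98). The Sall4 values over embryos hold the difference on which the family was chosen. Any gene ordered WT, Het, KO therefore scores high, and the list is no support for a link with Sall4. Msi2 measured 106 to 110 CPM in the WT embryos, 123 to 139 in the Het embryos and 147 to 167 in the KO embryos.

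The genes next to each member were read for the same comparisons. Over all cells 7 neighbours could be tested, and their log2 fold changes ran from -0.18 to 0.57 over the 3 comparisons without a call. Atp9a, 5.92 kb from Sall4, was -0.089 in KO vs WT (adjusted p = 0.180) while Zfp64, 125 kb on the other side, was -0.091 (adjusted p = 0.312). Mettl3, which lies 6.04 kb from Sall2 and encodes the catalytic subunit of the RNA m6A methyltransferase, was -0.034 in KO vs WT over all cells. Within layer II-IV-like cells Mettl3 was -0.26 in KO vs WT (adjusted p = 0.00366), against -1.53 for Sall2. Tox3, the more distant neighbour of Sall1, was -0.77 in that class (adjusted p = 1.71e-06) while Sall1 was 1.09.

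Partners and related factors were counted over all cells from 4 lists, beside medians over all genes of 0.00048 in Het vs WT, -0.0055 in KO vs WT and -0.0013 in KO vs Het. The counts of called members stand against shares of all genes called of 24.5% (KO vs WT), 2.98% (Het vs WT) and 5.50% (KO vs Het), and the lists are short. Of 15 NuRD subunits, 4 were called higher and 2 lower in KO vs WT (median log2 fold change 0.091), 2 and 1 in Het vs WT, and 2 and 1 in KO vs Het. Gatad2b itself, the trapped gene, was 1 of the 2 lower in KO vs WT (-1.33) and was the only member lower in the other comparisons (-0.54 for Het vs WT, -0.78 for KO vs Het). Gatad2a, the paralog of Gatad2b, rose by 0.45 in KO vs WT and Hdac1, a deacetylase of the complex, by 0.54, while Chd5, its neuronal remodeler, fell by 0.56.

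Of 18 genes of the pluripotent and germ cell state that Sall4 is known for, 10 could be tested, and 3 rose and 1 fell in KO vs WT (median 0.071). Those were Klf4 (1.03), Tfap2c (0.96), Sox2 (0.39) and Zbtb16 (-0.51). The other medians were 0.0021 (Het vs WT) and 0.11 (KO vs Het). Among 6 genes described elsewhere as targets of Sall proteins, Cdkn1a rose by 0.48 and Myc fell by 0.69 in KO vs WT (median -0.020), and by 0.47 and 0.63 in KO vs Het. The 2 of 6 called in KO vs WT is near the share of all genes called there. Of 26 other C2H2 factors of the developing cortex, 12 were higher and 1 lower in KO vs WT (median 0.31), 3 higher in Het vs WT and 6 higher in KO vs Het. Among them Bcl11b and Fezf2, factors of deep-layer neurons, rose by 0.57 and 1.02. Over all cells the summed layer V-VI markers went from 966 CPM in WT to 1368 in KO and the intermediate progenitor markers from 297 to 435. The summed layer II-IV markers went from 1231.5 to 1007. The part of these markers in the counts for the list was not tested.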

How the data were processed

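Single-cell 3′ RNA-seq libraries (10X v3 chemistry) from 10 embryos were analysed, with groups taken from the labels. Per the labels, the deposited counts are UMI counts per gene and cell, which the authors made with Cell Ranger 6.0.2 against mm10 according to the submitters' processing notes. Each column held whole counts with no normalization. Such 3′ counts cannot tell transcripts of a gene apart. The members and lists were chosen with earlier results of these data known.

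Barcodes needed 1000 UMIs and a mitochondrial share of no more than 10%, and the UMI minimum removed no cell (65779 with and without it). Cells were integrated and clustered with Seurat 5.3.0 (reciprocal PCA, 2000 variable genes without the Sall genes and Gatad2b, 30 components, resolution 0.4), which gave 26 clusters. A cluster was named where a marker list scored at least 0.5 with at least 3 markers found in at least 10% of cells. Doublets were marked with the scrublet step of scanpy 1.11.5 at the expected share, 4.80% to 8.31% per embryo, and were kept in the reported values and removed in an alternative.

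For each embryo, UMIs were added up over all cells or per class and tested with edgeR 4.0.16 (filterByExpr, TMM, quasi-likelihood F-test, 1 fit over the 10 embryos, Benjamini-Hochberg adjustment over all genes tested). The script was tested on simulated data. Where nothing names separate litters, p-values measure the spread between embryos of these groups. Intervals and floors cover counting error only, with a floor of 3 counts. For shares of cells, each cell with at least 2000 UMIs was also thinned to 2000. Cells with fewer were left out of the thinned shares, 2079 of 23069 in WT, 995 of 25523 in Het and 517 of 17187 in KO. Genes named beside the members were the nearest protein-coding genes, members of 4 lists that were called (at most 8 a list by absolute log2 fold change), and the 3 genes with the highest Pearson correlation to each member. Alternatives were DESeq2 1.42.0, a replicate block, the library prefix as a covariate, other filters and clusterings, leaving out each embryo and, chosen after seeing the data, tests within single clusters. Replicate numbers were not taken to pair the embryos. Some sequences and genes are not reported here.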

Additional observations from a re-analysis of the deposited data

Results flagged for a closer look

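Among 32 groups of 4 Het embryos, 4 had 1 embryo far from the others by Dixon's ratio of gap to range (above its 95% critical value), and chance gives about 1 in 20 such groups. Sall1 in striatal inhibitory-like cells stood at 16.8 CPM in Het replicate 3 against 11.5 to 11.9 in the others. Sall2 in layer V-VI-like cells stood at 14.1 CPM in Het replicate 4, the Het embryo that shares its library prefix with WT, against 11.9 to 12.3. Sall3 in ganglionic eminence-like cells stood at 49.9 CPM in Het replicate 2 against 38.6 to 39.8. Sall3 in radial glia-like cells stood at 134 CPM in Het replicate 3 against 102 to 106.

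The change between genotypes was compared between layer II-IV-like cells and each other class in 93 tests of a member, and 16 passed. The share of all genes that passed these fits is not given here, and the tests share cells and embryos. The count is therefore not read as a result about the members. For Sall2 in KO vs WT, the log2 fold change in layer II-IV-like cells minus that in the other class was -1.46 against ganglionic eminence-like (adjusted p = 1.19e-05), -1.28 against intermediate progenitor-like (adjusted p = 1.25e-06), -1.36 against interneuron-like (adjusted p = 1.04e-05) and -1.53 against layer I-like cells (adjusted p = 0.000174). It was -1.31 against layer V-VI-like (adjusted p = 1.83e-07), -1.56 against radial glia-like (adjusted p = 3.79e-07) and -1.37 against striatal inhibitory-like cells (adjusted p = 4.83e-08). The layer V-VI-like sum joins cluster 3, where Sall2 was 0.46 in KO vs WT, and cluster 5, which mixes cells of both lists and where it was -1.01, and against these clusters the difference was -1.97 (adjusted p = 8.13e-08) and -0.51 (adjusted p = 0.0249). For Sall2 in KO vs Het the same difference was -1.04 against ganglionic eminence-like, -0.96 against intermediate progenitor-like, -0.90 against interneuron-like, -0.91 against layer I-like, -0.94 against layer V-VI-like, -0.99 against radial glia-like and -1.05 against striatal inhibitory-like cells (edgeR adjusted p = 7.85e-06 to 0.0360). For Sall2 in Het vs WT it passed against radial glia-like cells (-0.57, adjusted p = 0.0487). For Sall1 in KO vs WT it was 1.64 against layer V-VI-like cells, on few UMIs in both classes. That value counts among the 16 and is given here without a test.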

How the results depend on the processing

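The library prefix is a limit: WT and KO lie in different prefixes, and only Het embryos bridge them. With it as a covariate, KO vs WT over all cells was 0.53 for Sall1 (adjusted p = 0.106) and -0.18 for Sall2 (adjusted p = 0.228). By class, KO vs WT was 0.82 for Sall1 in microglia-like cells (adjusted p = 0.558) and 0.0087 for Sall2 in layer V-VI-like cells. Het vs WT was 0.0010 for Sall3 and 1.45 for Sall1 in layer II-IV-like cells. Calls over all cells numbered 41 (Het vs WT) and 1467 (KO vs WT). Sall4, Sall1 in neurons and microglia-like cells rest on few UMIs, which limits their precision.

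Same-numbered embryos did not deviate together (correlations -0.185 to 0.125). A replicate block gave 1850 calls in Het vs WT, where Sall1 (0.34, adjusted p = 0.0283) and Sall2 (-0.27, adjusted p = 0.00233) passed. Sall1 in layer II-IV-like cells was 0.93 in that fit. Only Het had a replicate 4, so this block sets Het replicate 4 aside, and genotype and prefix cannot be told apart in its Het vs WT values. DESeq2 gave 1002 calls in Het vs WT, with Sall1 at 0.33 (adjusted p = 0.0182) over all cells and 1.09 in layer II-IV-like cells. A fit of only the 2 groups gave 159 calls. With at most 5% mitochondrial UMIs, Sall1 in Het vs WT was 0.54 (adjusted p = 0.0248), Sall3 was 0.088 (Het vs WT) and 0.41 (KO vs WT, adjusted p = 0.0150), Sall4 in Het minus WT was 0.277 CPM, and Sall1 in layer II-IV-like cells was 0.93 in Het vs WT. That last value was 0.96 without marked doublets and 0.60 without integration, and in KO vs WT 0.64 without integration. The cause of these moves was not tested.

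With equal weight per class, on log2(CPM + 1), which compresses low genes, Sall1 was 0.062 (Het vs WT) and 0.24 (KO vs WT), Sall2 was -0.57 in KO vs WT and -0.27 in KO vs Het, Sall3 was -0.039 (KO vs WT) and -0.043 (KO vs Het), and Sall4 in KO vs Het was 0.28. Alternatives chosen after seeing the data gave -0.21 for Sall2 in KO vs WT without the layer II-IV-like class. In cluster 2 these Sall2 values did not pass: -0.35 (Het vs WT, adjusted p = 0.163) and -0.38 (KO vs Het, adjusted p = 0.156). Sall1 there was 1.10 (Het) and 1.00 (KO) against WT, given without a test. In cluster 9 Sall2 in Het vs WT was -0.32 (adjusted p = 0.118), and Sall1 stood at 0.411 CPM in WT and 0.224 in KO, on 11 and 3 UMIs. In layer V-VI-like cells, cluster 3 turned the direction of Sall2 to 0.090 (Het vs WT, adjusted p = 0.812) and 0.46 (KO vs WT, adjusted p = 0.0308), and cluster 5 gave -0.37 and -1.01. Sall1 in KO vs WT was -0.042 in cluster 7 and 2.28 in cluster 19 of the intermediate progenitor-like class, against 0.36 in the class. In cluster 19 Sall1 passed the low-count filter mainly through the KO embryos, so its value is given without a test.

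Leaving out 1 embryo at a time gave 74 to 1829 calls in Het vs WT, 3448 to 4626 in KO vs WT and 528 to 1060 in KO vs Het. In Het vs WT, Sall1 ran from 0.21 to 0.43, Sall2 from -0.28 to -0.19 (-0.27 and passed without Het replicate 4, adjusted p = 0.00474) and Sall3 from -0.18 to 0.0013 (without WT replicate 2). In KO vs WT, Sall1 ran from 0.40 to 0.62 and Sall2 from -0.42 to -0.35, all passing. Sall4 in KO vs Het ran from 1.05 to 1.54. In layer II-IV-like cells Sall1 ran from 0.92 to 1.18 in Het vs WT, lost in 7 of 10 fits, and from 0.88 to 1.37 in KO vs WT. Sall2 there passed in every such fit, from -0.60 to -0.51, -1.59 to -1.50 and -1.04 to -0.95 in the 3 comparisons. Sall1 in microglia-like cells ran from 1.30 to 1.69.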
